A study of Mus musculus with 32 samples.

Results

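The nicotinic acetylcholine receptor of skeletal muscle is built from subunits encoded by 5 genes, Chrna1, Chrnb1, Chrnd, Chrne and Chrng, for the alpha1, beta1, delta, epsilon and gamma subunits. They were taken by name from a deposited table of expected counts of 54838 mouse genes in 32 libraries, and all 5 passed the filter on low counts in every comparison. The libraries hold poly(A) RNA of the tibialis anterior (TA) muscle of wild-type (WT) littermates and of Mtm1 knockout (KO) mice, all on the C57BL6/J background, at postnatal days 1, 14, 21 and 35 (P1, P14, P21 and P35). Each genotype and age has 4 libraries with replicate numbers 1 to 4, and different ages are different mice. The KO mice carry a constitutive deletion of exon 4 of Mtm1, the X-linked gene for the lipid phosphatase myotubularin, so the deletion is present in nerve, immune and muscle cells alike. The study followed this mouse as a model of X-linked myotubular myopathy from birth to late disease.

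The receptor sits in the muscle membrane under the nerve ending and opens when acetylcholine released by the nerve binds to it. In the fetus and newborn it is made of alpha, beta, delta and gamma subunits and lies along the whole fibre. After birth epsilon takes the place of gamma, and transcription of the subunit genes becomes limited to the nuclei under the synapse. Muscle that loses its nerve or its electrical activity transcribes the alpha, delta and gamma genes again outside the synapse.

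Chrna1 (ENSMUSG00000027107) lies on the minus strand at chr2:73563215-73580338 in GRCm38, with 4386 bp of annotated exons. Chrnb1 (ENSMUSG00000041189) is at chr11:69784036-69795943 on the minus strand, with 2531 bp of exons. Chrne (ENSMUSG00000014609), at chr11:70614883-70619216 on the minus strand with 1690 bp of exons, is the shortest of the 5. Chrnd (ENSMUSG00000026251, chr1:87190607-87200070, 3288 bp of exons) and Chrng (ENSMUSG00000026253, chr1:87204657-87212694, 4163 bp of exons) are neighbours on the plus strand, 4586 bp apart. The exons of the 5 genes overlap those of no other annotated gene, and 4930544D05Rik, which lies opposite Chrne, held at most 1 count in any library.

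Regulatory sequence known for these genes lies close to their start sites, where myogenic regulators such as myogenin bind E-boxes and where ETS family factors bind the N-box of synaptic genes. RefSeq promoter sequence on GRCm38.p6 was matched for 4 of the 5 genes, Chrna1, Chrnb1, Chrne and Chrng. The RefSeq start of Chrng lies downstream of the start given above from GENCODE, so its stretch is inside the gene as GENCODE annotates it. The 4 stretches are shown because the 4 genes share E-boxes while only the Chrne stretch holds the N-box letters. Capitals mark E-boxes (CANNTG, the same motif on both strands) and the N-box core (CCGGAA, searched on both strands), and each line runs 5′ to 3′ along the gene's own strand. The E-box of Chrnb1 nearest to its start lies outside the stretch printed.
Chrna1, chr2:73580369-73580528, minus strand: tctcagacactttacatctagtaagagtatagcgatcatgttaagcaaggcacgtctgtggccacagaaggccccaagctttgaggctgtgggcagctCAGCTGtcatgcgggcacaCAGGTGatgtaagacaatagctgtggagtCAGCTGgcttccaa
Chrnb1, chr11:69795968-69796067, minus strand: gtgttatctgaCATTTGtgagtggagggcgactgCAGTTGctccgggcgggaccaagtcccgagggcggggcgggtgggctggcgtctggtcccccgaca
Chrne, chr11:70619225-70619384, minus strand: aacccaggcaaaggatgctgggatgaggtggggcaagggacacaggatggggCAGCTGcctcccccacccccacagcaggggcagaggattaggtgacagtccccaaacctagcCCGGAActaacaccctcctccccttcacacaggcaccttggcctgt
Chrng, chr1:87205621-87205780, plus strand: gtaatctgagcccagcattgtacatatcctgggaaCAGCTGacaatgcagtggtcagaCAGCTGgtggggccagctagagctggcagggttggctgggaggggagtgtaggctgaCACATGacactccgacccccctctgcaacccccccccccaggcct

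In the 250 bases before the start site, the Chrna1, Chrnb1 and Chrng promoters each held 3 E-boxes and the Chrne promoter held 1. For Chrnb1, 120 of the 250 bases searched lie in exons of another gene. Of 32851 promoters searched over the same length, 66.2% held at least 1 E-box and 12.2% held 3 or more. The N-box core occurred once, in the Chrne promoter 76 bases before the start, and 12.0% of all promoters held it. These matches describe letters in the sequence and no binding was measured.

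Library totals ran from 49321035 to 85631408 counts. Levels are given in CPM, counts relative to the size of their library after scaling by the trimmed mean of M-values (TMM) over the 32 libraries, with the mean ± SD of n = 4 libraries, and levels of different genes are compared only per kilobase of exon. Differences are log2 fold changes from edgeR's quasi-likelihood test with Benjamini-Hochberg adjusted p-values over all genes tested, and a gene is called at an adjusted p under 0.01 with more than a 1.5-fold change. Mtm1 itself measured 5.58 ± 0.351 CPM in WT and 2.81 ± 0.782 in KO at P1, without overlap but not called (log2 fold change -0.98, adjusted p = 0.0668), and it fell by 2.34 at P14, 2.71 at P21 and 2.56 at P35 on the log2 scale. Counts are per gene, and the exons these reads come from were not measured. All 8 fixed markers of muscle fibres (Acta1, Ckm and others) were detected in every group. Libraries at P1 also held keratinocyte markers, with summed levels of 1937 to 7076 CPM against 4.69 to 21.4 CPM later, in both genotypes.

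Subunit genes were called between KO and WT at P21 and P35, and not at P1 or P14. At P1, 0 of the 5 were called between KO and WT, beside 0.0442% of all 18100 genes tested. At P14 again 0 were called, beside 0.0318% of genes. Chrnd and Chrnb1 were called higher in KO at P21, where 4.67% of genes were called and 3.18% called higher. Chrna1, Chrnb1, Chrnd and Chrng were called higher at P35, where 16% of genes were called and 8.49% called higher. The median log2 fold change of the 5 was -0.20, 0.33, 1.36 and 1.97 at the 4 ages, beside 0.01, 0.00, 0.01 and 0.04 over all genes tested. By DESeq2 the counts of subunits called were 0, 0, 2 and 5, the 2 at P21 being Chrnd and Chrna1. At an unadjusted p under 0.05 in edgeR they were 0, 2, 4 and 5.

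**Figure D1:**
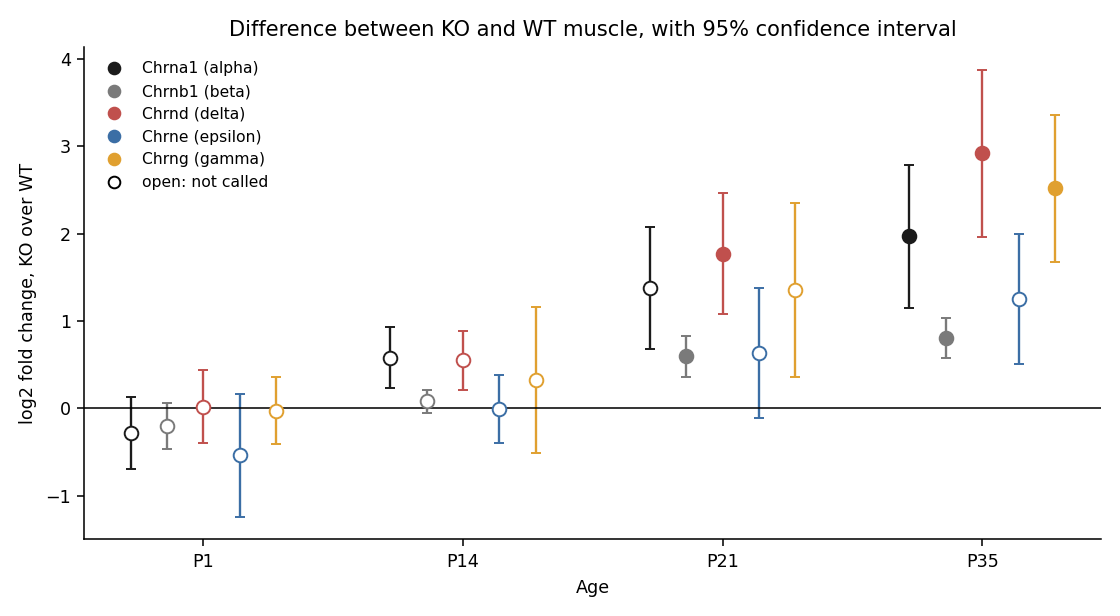
Log2 fold change of KO against WT for each subunit gene at P1, P14, P21 and P35 (points, filled where called, with 95% confidence intervals from edgeR). The values lie around 0 at P1 and are all above 0 at P35, from 0.80 for Chrnb1 to 2.92 for Chrnd.

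Chrna1 encodes the alpha1 subunit, which forms most of the acetylcholine binding sites and is also the autoantigen of many patients with myasthenia gravis. At P1 it measured 61.3, 84.2, 64.4 and 66.3 CPM in WT replicates 1 to 4 and 56.2, 62.3, 69.6 and 37.0 CPM in KO. At P14 the WT libraries held 63.9, 67.9, 59.0 and 45.6 CPM, with KO libraries at 90.3, 101.6, 95.9 and 66.8 CPM. The genotypes overlapped at both ages, at P14 only through KO replicate 4. By P21 the WT values were 44.0, 15.1, 46.7 and 34.0 CPM and the KO values 93.6, 103.9, 61.4 and 101.8 CPM. At P35 Chrna1 stood at 38.3, 31.1, 32.1 and 13.6 CPM in WT and at 70.5, 73.1, 169.9 and 131.3 CPM in KO. Every KO library was above every WT library at P21 and at P35. Chrna1 was called at P35, with a log2 fold change of 1.97 (SE 0.364, 3.92-fold, adjusted p = 0.00246). At P21 it was 1.38 (SE 0.311, adjusted p = 0.0137), which was not called by edgeR and was called by DESeq2 (adjusted p = 0.00291) and by edgeR with library totals (1.56, adjusted p = 0.00539). The values at P1 (-0.28, SE 0.183, adjusted p = 0.604) and P14 (0.58, SE 0.155, adjusted p = 0.419) were not called.

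Chrnb1 encodes the beta1 subunit, through which rapsyn-dependent clustering of the receptor is regulated. Its coefficient of variation between the libraries of a group, 4.02% to 15.9%, was the lowest of the 5 genes in all 8 groups. In WT it measured 40.7, 48.9, 43.1 and 41.9 CPM at P1 and 83.4, 92.2, 88.2 and 93.0 CPM at P14. In KO the same ages gave 36.4, 42.0, 42.5 and 29.7 CPM and then 89.4, 98.5, 95.5 and 95 CPM. Both genotypes were thus higher at P14 than at P1 in every library, and they overlapped with each other at both ages. At P21 the WT libraries stood at 52.8, 69.8, 57.5 and 66.7 CPM, with KO libraries at 96.8, 91.9, 80.3 and 101.2 CPM. At P35 WT held 58.8, 58.1, 45.9 and 55.5 CPM and KO held 90.8, 82.7, 105.2 and 96.4 CPM. At both ages every KO library was above every WT library, and every WT library lay below the lowest WT library of P14. Chrnb1 was called at P21 by a narrow margin (log2 fold change 0.60, SE 0.104, 1.51-fold, adjusted p = 0.00451) and at P35 (0.80, SE 0.102, 1.74-fold, adjusted p = 3.99e-04). The P21 value was 0.57 by DESeq2 and 0.58 with the size factors of DESeq2 in edgeR, both under the 1.5-fold minimum, so neither called it. At P1 and P14 the values were -0.20 (adjusted p = 0.560) and 0.08 (adjusted p = 0.885).

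Chrnd encodes the delta subunit, present in both the fetal and the adult receptor. At P1 the WT libraries held 26.6, 33.9, 32 and 35.1 CPM, with KO libraries at 33.6, 34.4, 40.0 and 20.5 CPM. At P14 they held 6.94, 7.85, 6.93 and 5.04 CPM in WT, with KO at 10.8, 10.2, 10.5 and 7.92 CPM. The lowest KO library at P14, replicate 4, lay just above the highest WT library. At P21 WT gave 8.38, 2.94, 7.11 and 6.08 CPM and KO gave 26.2, 22.2, 12.3 and 22.5 CPM. At P35 WT gave 5.66, 3.80, 7.01 and 1.33 CPM and KO gave 24.7, 27.0, 49 and 32 CPM. All KO libraries were above all WT libraries from P14 on, and the KO mean at P35, 33.2 ± 11.0 CPM, was 103.4% of the KO mean at P1, while the WT mean of 4.45 ± 2.46 CPM was 13.9% of the WT mean at P1. With scaling by library totals in place of TMM these shares were 68.1% and 7.03%. The 8 muscle fibre markers summed on average to 32281 CPM (WT) and 28914 CPM (KO) at P1. At P35 they summed to 179515 and 114677 CPM, and the part of this difference in the shares was not tested. Chrnd had the highest fold change of the 5 at both late ages, 1.77 at P21 (SE 0.310, 3.42-fold, adjusted p = 0.00462) and 2.92 at P35 (SE 0.427, 7.57-fold, adjusted p = 7.67e-04). At P1 it was 0.02 (SE 0.184, adjusted p = 0.973) and at P14 0.55 (SE 0.149, adjusted p = 0.430), neither called.

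Chrng encodes the gamma subunit of the fetal receptor, which neonatal muscle stops making as epsilon takes over. It measured 29.5, 35.6, 34.0 and 39.9 CPM in WT, with KO at 38.7, 37.2, 37.0 and 22.4 CPM at P1. At P14 the values were 2.13, 2.12, 1.56 and 0.937 CPM in WT, with KO at 2.73, 2.54, 2.35 and 0.869 CPM. By then both genotypes were far under their P1 level and overlapped each other. At P21 WT held 0.0977, 0.416, 0.506 and 0.451 CPM, which rest on 4 to 21 counts, and KO held 1.33, 1.04, 0.449 and 0.974 CPM. At P35 the WT libraries gave 0.363, 0.396, 0.543 and 0.344 CPM on 15 to 23 counts, and the KO libraries gave 1.80, 1.37, 4.18 and 2.01 CPM on 93 to 274 counts. The genotypes overlapped at P21 through KO replicate 3 and were apart at P35. Chrng rose at P35 with a log2 fold change of 2.52 (SE 0.376, 5.74-fold, adjusted p = 8.38e-04), and its P21 value of 1.36 (SE 0.445, adjusted p = 0.0568) was not called. Even so, the KO level at P35 was 6.91% of the KO level at P1, and the WT level 1.18% of the WT level at P1 (4.53% and 0.594% with library totals). The part of the differing fibre markers of P1 and P35 in these shares was not tested. The differences at P1 and P14, -0.03 (adjusted p = 0.961) and 0.33 (adjusted p = 0.960), were not called.

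Chrne encodes the epsilon subunit of the adult receptor and is the gene most often mutated in congenital myasthenic syndromes. At P1 it measured 1.0, 1.24, 1.06 and 0.80 CPM in WT, with KO at 0.556, 0.830, 1.06 and 0.363 CPM. At P14 the values were 22.5, 21.7, 27.0 and 23.9 CPM in WT, with KO at 16.6, 21.5, 31.2 and 25.6 CPM. The genotypes overlapped at both ages. At P21 WT held 28.6, 9.79, 24.9 and 15.8 CPM and KO held 24.9, 44.6, 20.7 and 31.3 CPM. At P35 WT held 22, 15.2, 17.4 and 7.47 CPM and KO held 30.5, 22, 51.2 and 42.2 CPM. The overlap at P35 came from a single pair, WT replicate 1 at 22.02 CPM and KO replicate 2 at 21.98 CPM. Chrne was the only subunit gene not called at any age in the main edgeR fits. Its log2 fold changes were -0.54 at P1 (SE 0.312, adjusted p = 0.569), -0.01 at P14 (SE 0.172), 0.63 at P21 (SE 0.332, adjusted p = 0.206) and 1.25 at P35 (SE 0.333, 95% confidence interval 0.51 to 2.0, adjusted p = 0.0145). DESeq2 called it at P35 (adjusted p = 5.66e-04), as did edgeR with library totals, with no filter or with all 32 libraries in 1 fit.

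**Figure D2:**
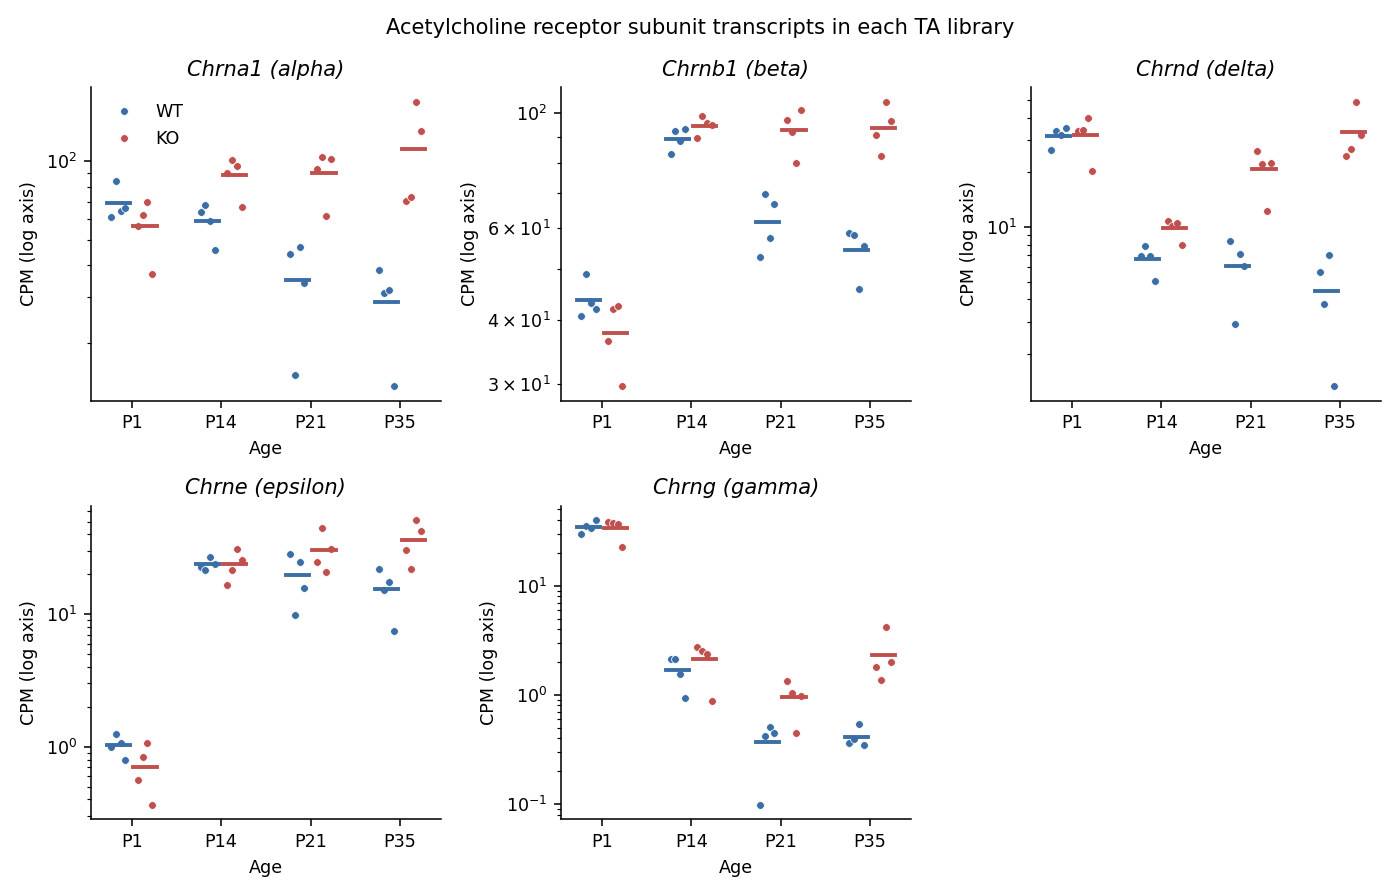
CPM (log axis) of the 5 subunit genes in each library at each age, WT and KO side by side, with bars at the group means. Chrng goes from a mean of 34.8 CPM in WT at P1 to 0.368 CPM at P21, Chrne goes the other way between P1 and P14, and from P21 the KO points of Chrna1, Chrnb1 and Chrnd lie above all WT points.

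Of the 5 genes, 0 had libraries apart between genotypes at P1, 1 (Chrnd) at P14, 3 at P21 and 4 at P35, beside 8.73%, 4.88%, 24.8% and 39.6% of all genes tested. The calls at P21 depended on single libraries. Without KO replicate 1, 2 or 4 or WT replicate 3 neither Chrnd nor Chrnb1 was called, and without WT replicate 1 or 4 only 1 of them was. Their log2 fold changes over these fits stayed between 1.54 and 1.95 for Chrnd and between 0.51 and 0.66 for Chrnb1. At P35 the same 4 genes were called whichever library was left out. At P14 same-numbered WT and KO libraries deviated together, though the labels name no pairs. There the edgeR fit with the replicate number as a block gave Chrna1 0.58 (SE 0.0445, adjusted p = 1.94e-04) and Chrnd 0.56 (SE 0.0696, adjusted p = 0.00243). Both were under the 1.5-fold minimum, and the genes called went from 5 to 98. Reading these numbers as pairs rests on a likeness seen in these same data.

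Single libraries moved several subunits together. KO replicate 3 at P35 was the highest of its group in all 5 genes, and KO replicate 3 at P21 and KO replicate 4 at P1 were the lowest of theirs in all 5. WT replicate 4 at P35 was the lowest in 4 of the 5, Chrnb1 excepted, and also held the least Colq, the collagen tail that anchors acetylcholinesterase at the synapse, with 3.25 CPM against 10.2 to 13.4 CPM in the other WT libraries. WT replicate 2 at P21 was the lowest in Chrna1, Chrnd and Chrne yet the highest in Chrnb1, with Colq at 6.26 CPM against 15.0 to 20.9 CPM. KO replicate 4 at P1 held the lowest fibre markers, summing to 19691 CPM against 27601 to 38092 CPM in the other KO libraries of that age. It was also the lowest of its group in the sums of fibroblast, endothelial, Schwann cell and satellite cell markers. In the sums of macrophage, keratinocyte and adipocyte markers it was not the lowest. The part of these differences between libraries in the results was not tested.

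Between P1 and P14 gamma gave way to epsilon in both genotypes. In WT, 4 of the 5 genes were called, beside 55.1% of genes tested. Chrne rose by 4.55 on the log2 scale (23.5-fold, adjusted p = 2.31e-08) and Chrng fell by 4.33 (20.2-fold, adjusted p = 1.64e-07). Chrnd fell by 2.24 (adjusted p = 4.92e-07), Chrnb1 rose by 1.04 (adjusted p = 8.70e-07), and Chrna1 at -0.21 (adjusted p = 0.173) was not called. In KO the same 4 genes were called, beside 52.6% of genes, with 5.09 for Chrne, -3.99 for Chrng, -1.71 for Chrnd and 1.32 for Chrnb1. Chrna1 in KO was at 0.65 (adjusted p = 0.0125), not called by edgeR and called by DESeq2. Scaling by library totals shifted the median of all genes by -0.85 in WT and -0.81 in KO in this comparison, and on that scale Chrnb1 was 0.27 in WT and 0.62 in KO and Chrna1 -0.96 in WT and -0.03 in KO, so the direction of Chrna1 in KO depends on the scaling.

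From P14 to P21, 1 subunit gene was called in each genotype, and not the same gene. In WT only Chrng was called, beside 5.53% of genes, at -2.20 (adjusted p = 0.00593), and the call held in 2 of 8 fits that left out a library. Chrnb1 was -0.54 in WT (adjusted p = 0.00452, under the 1.5-fold minimum), Chrna1 -0.77 (adjusted p = 0.0856), Chrne -0.28 and Chrnd -0.14. In KO only Chrnd was called, beside 7.04% of genes, at 1.06 (adjusted p = 0.00679), in 2 of 8 fits that left out a library and not with scaling by library totals (1.01, adjusted p = 0.0128). Chrng in KO was -1.19 (adjusted p = 0.0477), Chrne 0.34, Chrna1 0.01 and Chrnb1 -0.05. From P21 to P35, 0 of the 5 were called in WT (2.45% of genes called) and 0 in KO (4.01% called), by edgeR. At an unadjusted p under 0.05 the counts were 0 in WT and 2 in KO, and DESeq2 called 0 in WT and Chrng in KO (1.31, adjusted p = 0.00591). The WT values lay between -0.47 for Chrnd and 0.14 for Chrng, and the highest KO values were 1.32 for Chrng (adjusted p = 0.0413) and 0.69 for Chrnd (adjusted p = 0.0820).

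An interaction term in an edgeR model over the 32 libraries tested whether the KO effect itself differed between successive ages. Called subunits numbered 0 of 5 from P1 to P14, 0 from P14 to P21 and 0 from P21 to P35, beside 0.0161%, 0.425% and 0.463% of 18583 genes. DESeq2 also called 0 in each, and at an unadjusted p under 0.05 edgeR gave 1, 2 and 1. Between P14 and P21 Chrnb1 differed by 0.50 (SE 0.148, adjusted p = 0.0895) and Chrnd by 1.21 (SE 0.454, adjusted p = 0.214). Between P21 and P35 Chrnd differed by 1.14 (SE 0.457, adjusted p = 0.190) and Chrng by 1.15 (adjusted p = 0.367). The ages P14 and P35, which are not successive, were compared in the same model after the data were seen. There 3 of the 5 subunits were called, each with the larger KO effect at P35, beside 8.53% of genes. The effect differed by 2.34 for Chrnd (SE 0.459, adjusted p = 7.64e-04), 0.69 for Chrnb1 (SE 0.148, adjusted p = 0.00168) and 2.17 for Chrng (SE 0.538, adjusted p = 0.00568). Chrna1 at 1.36 (adjusted p = 0.0271) and Chrne at 1.23 (adjusted p = 0.0541) were not called, and both were with library totals. DESeq2 called 3. The calls of Chrnd and Chrnb1 held in 16 of 16 fits that left out a library. That of Chrng held in 9, and was lost without KO replicate 4 or WT replicate 1 or 2 of P14, and without KO replicate 3 or WT replicate 1, 2 or 4 of P35.

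Per kilobase of exon, Chrnb1 had the highest mean of the 5 in all 8 groups. In WT at P1 the order was Chrnb1 17.2, Chrna1 15.7, Chrnd 9.70, Chrng 8.35 and Chrne 0.607 CPM per kb, and KO had the same order. Chrnb1 and Chrna1 overlapped there, as did Chrnd and Chrng. At P14 WT held Chrnb1 35.3, Chrne 14.1, Chrna1 13.5, Chrnd 2.03 and Chrng 0.405 CPM per kb, and the same order stood at P21 and P35, with Chrne and Chrna1 overlapping at each age. KO at P14, P21 and P35 had the mean of Chrna1 above that of Chrne, again with overlapping libraries at each age, at P35 with Chrnb1 37.0, Chrna1 25.4, Chrne 21.6, Chrnd 10.1 and Chrng 0.562 CPM per kb. In that group each of Chrnb1, Chrna1, Chrne and Chrnd overlapped with its neighbour in the order, and only Chrng stood clear below. With the length of the longest transcript in place of all exons the order was the same in 6 of the 8 groups. At P1 that length placed Chrng above Chrnd, at 12.5 and 10.8 CPM per kb in WT and 12.2 and 10.9 in KO.

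**Figure D3:**
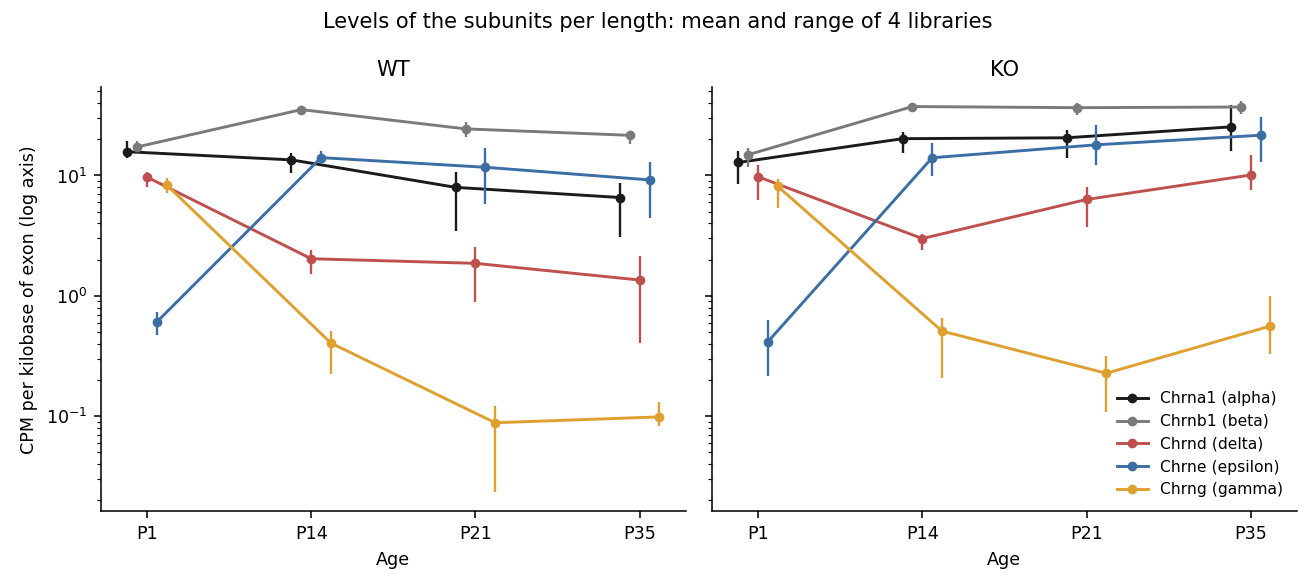
Mean level of each subunit gene in CPM per kilobase of exon (log axis) by age, in WT and KO, with lines from the lowest to the highest of 4 libraries. Chrnb1 is highest throughout, and Chrne and Chrng exchange places between P1 and P14 in both genotypes.

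Since gamma and epsilon take the same place in the receptor, the share of Chrng in the sum of Chrng and Chrne, each per length, was computed within each library and does not depend on library scaling. At P1 the share was 93.1% ± 1.48 in WT and 95.2% ± 1.45 in KO (n = 4 each). At P14 it was 2.84% ± 1.09 and 3.79% ± 2.11, and at P21 0.949% ± 0.651 and 1.29% ± 0.575. WT and KO overlapped at these 3 ages (exact permutation p = 0.0857, 0.486 and 0.429, two-sided). At P35 the share was 0.665% to 1.83% in the WT libraries, mean 1.2% ± 0.488, and 1.89% to 3.21% in the KO libraries, mean 2.47% ± 0.547. The exact permutation test gave p = 0.0286, the smallest that 70 assignments allow, and 0.114 after Benjamini-Hochberg adjustment over the 4 ages, so the difference did not pass the correction.

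**Figure D4:**
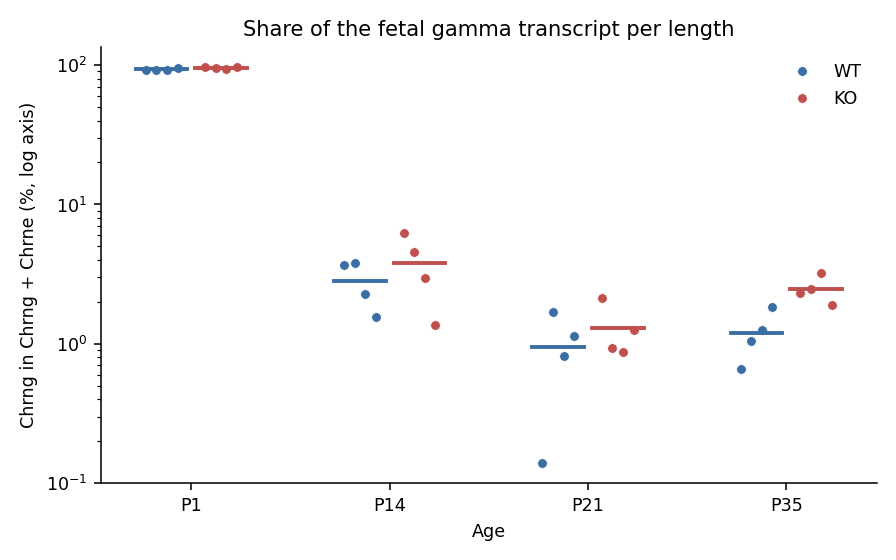
Percentage (log axis) of Chrng in Chrng plus Chrne, per length, in each library by age and genotype, with bars at the group means. Libraries at P1 lie between 92.1% and 96.6%, later libraries reach at most 6.26%, and at P35 the 4 KO libraries (1.89% to 3.21%) are above the 4 WT libraries (0.665% to 1.83%).

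Genes that act with the receptor did not all move with it. Of 14 genes of the clustering pathway, 0 were called at P21 (4.67% of genes called) and 2 at P35 (16%), both higher. These were the cortical actin protein cortactin, Cttn (log2 fold change 0.82, adjusted p = 1.18e-04), and the kinase Pak1 (0.88, adjusted p = 0.00206). The core of the pathway runs from agrin, released by the nerve, through its receptor Lrp4 and the kinase MuSK with its adaptor Dok7 to rapsyn, which binds the receptor. At P35 Agrn was -0.42, Lrp4 0.24, Musk 0.61, Dok7 -0.31 and Rapsn 0.20, with adjusted p-values of 0.0590 to 0.253, and none was called. The median of the 14 genes was 0.09 at P21 and 0.00 at P35. These counts depend on the scaling. With library totals 2 of the 14 were called higher at P21 and 6 at P35, beside 1052 of 15179 and 4350 of 15595 genes. Those at P35 included Musk (1.02), Lrp4 (0.64) and Rapsn (0.60), the P35 median was 0.41, and Dok7 turned from -0.31 to 0.10.

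Among 13 genes of receptor assembly and turnover, 1 was called higher and 1 lower at P21, beside 3.18% and 1.5% of all genes. At P35, 2 were called higher, beside 8.49% of all genes. With library totals 5 were called higher at P35, beside 4350 of 15595 genes. Trim63, the ubiquitin ligase MuRF1 that takes part in receptor turnover and fibre atrophy, rose at P21 (1.36, adjusted p = 1.42e-04) and at P35 (1.28, adjusted p = 1.71e-04). Prkar1a, a regulatory subunit of protein kinase A held near the synapse, rose at P35 (0.79, adjusted p = 0.00406). Ric3, a chaperone of nicotinic receptors, fell by 0.71 at P21 (adjusted p = 0.00711) but was not called with library totals. In the synaptic cleft and transmission list, 12 of 14 genes were tested, 0 were called at P21, and 3 were called higher and 4 lower at P35, where 7.52% of all genes were called lower. Colq rose from 9.45 ± 4.36 to 33.0 ± 10.7 CPM (1.83, adjusted p = 0.00473). The adult muscle sodium channel gene Scn4a fell by 0.86 (adjusted p = 4.08e-04), Col4a3 by 1.13 and Lama5 by 0.64, both chains of the basal lamina. Scn4a and Lama5 were not called with library totals, under which the median of this list turned from -0.25 to 0.16. Ache, the esterase that ends transmission, was at 0.83 (adjusted p = 0.0236), not called. Colq and Ache were named after their values were seen, as were the 5 core clustering genes.

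Of 12 genes of the denervation response, 8 were called higher at P21 and 10 at P35, 0 lower, with medians of 1.38 and 1.79. Of all genes tested, 3.18% and 8.49% were called higher at these ages. This list, like the others, was chosen with earlier results of these data known. With library totals the counts were 8 and 12, beside 1052 of 15179 and 4350 of 15595 genes called higher. With the size factors of DESeq2 they were 8 and 9, beside 455 and 1287 genes called higher. Runx1, a transcription factor induced by loss of activity, went from 3.04 ± 0.836 CPM in WT to 21.3 ± 5.63 in KO at P21 (2.81, adjusted p = 1.74e-04) and was at 3.15 at P35 (adjusted p = 4.27e-05). The cell cycle inhibitor Cdkn1a rose by 3.38 and 3.83 at these ages. Ncam1, the adhesion molecule of denervated and immature fibres, rose by 1.5 and 1.91. Of 22 genes of synaptic and activity regulated transcription that were tested, 5 were called higher and 1 lower at P21, and 8 higher and 1 lower at P35, with medians of 0.26 and 0.44. Of all genes tested, 1.5% were called lower at P21 and 7.52% at P35. With library totals 8 of the 22 were called higher at P21 and 13 at P35, with 1 lower at each age. The medians were then 0.45 and 0.85. Myog, the E-box factor myogenin, rose by 1.35 at P21 (adjusted p = 0.00349) and 2.35 at P35 (adjusted p = 3.23e-04), Hdac4, a repressor that links activity to these genes, by 0.73 at P21, and the neuregulin receptor gene Erbb2 by 1.29 at P35. Dach2, a repressor of Myog, was the gene called lower at both ages (-2.85 and -2.95) and was named after its values were seen. The 2 lists share Runx1, Myog and Hdac4.

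Of 12 genes of immature fibres, 1 was called higher at P14 (0.0254% of all genes called higher). At P21, 5 were called higher and 1 lower, beside 3.18% and 1.5% of all genes. At P35, 7 were called higher and 1 lower, beside 8.49% and 7.52% of all genes. With library totals 0 were called at P14, 6 higher and 1 lower at P21, and 8 higher and 1 lower at P35. On that scale 1052 genes were called higher and 105 lower at P21, and 4350 higher and 326 lower at P35. Embryonic myosin Myh3 rose by 4.16 at P35 (adjusted p = 7.01e-05), Myl6b by 2.92 and the troponin gene Tnnt2 by 2.18. Myl4 rose by 2.66 at P21, while cardiac actin, Actc1, fell by 3.35. At P1 none of the genes in any of these lists was called by edgeR, and at P14 only the 1 immature fibre gene was. Among 11 other nicotinic subunit genes, 3 were tested at P35 and Chrna4 was called lower, at 0.962 ± 0.178 CPM in WT and 0.182 ± 0.0977 CPM in KO (-2.39, adjusted p = 9.96e-04).

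**Figure D5:**
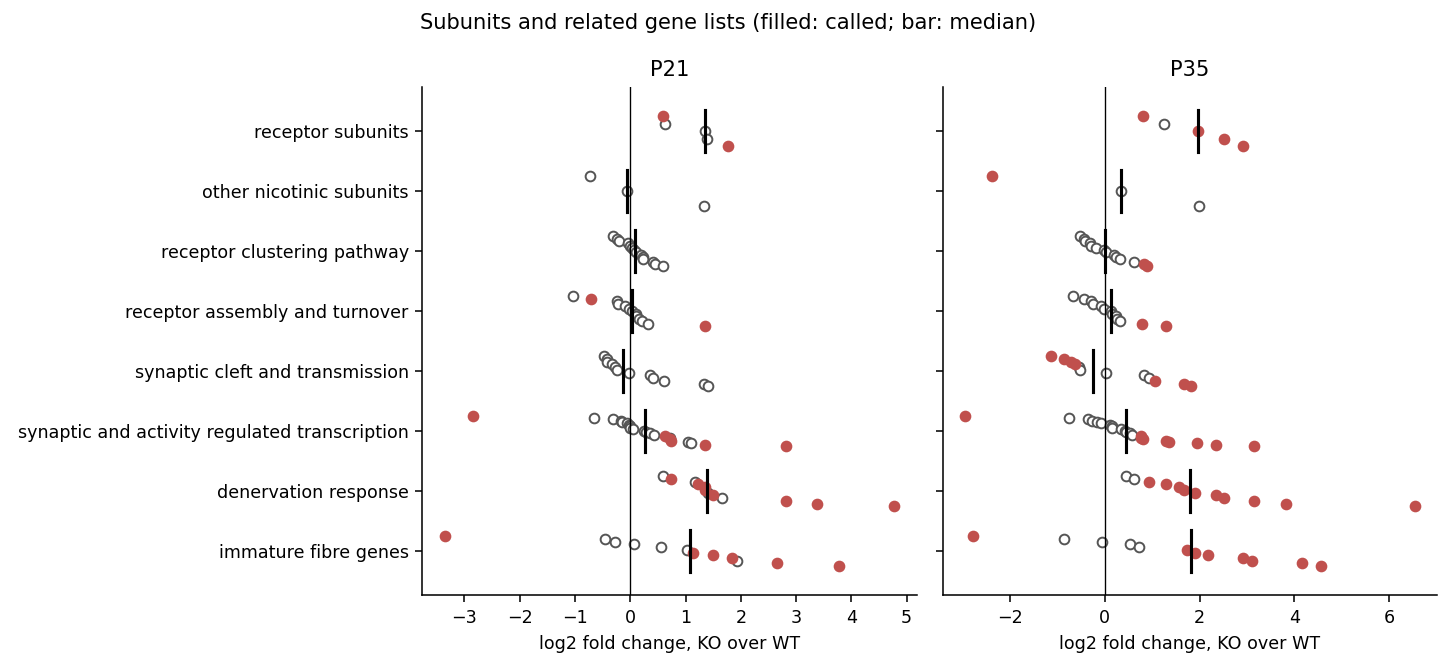
Log2 fold change of KO against WT at P21 and P35 for the genes of each list, 1 point per gene, with called genes marked and the list median drawn. The denervation response and receptor subunit lists have medians of 1.79 and 1.97 at P35, and the clustering pathway has a median of 0.00.

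Markers of other cell types differed between genotypes at the late ages in some lists and not in others. Of all genes tested, 3.18% were called higher and 1.5% lower at P21, and 8.49% higher and 7.52% lower at P35. Macrophage markers summed to 57.4 to 79.2 CPM in WT and 95.9 to 125.2 CPM in KO at P21, and to 72.5 to 86.6 against 110.1 to 173.0 CPM at P35, with 3 and 4 of 6 called higher. Satellite cell and myoblast markers summed to 75.2 to 90.0 CPM in WT and 104.5 to 147.0 CPM in KO at P35, with 2 of 8 called higher and 2 lower. Mature fibre markers summed to 145335 to 214660 CPM in WT and 89546 to 126302 CPM in KO at P35, with 1 of 8 called lower. Adipocyte markers were at 218.2 to 348.5 CPM in WT against 358.8 to 486.7 CPM in KO at P35 (4 of 6 called higher). At P21 their median log2 fold change was -0.51, with 0 of 5 tested called. Schwann cell markers overlapped at P35, at 97.2 to 602.6 CPM in WT against 321.7 to 1292 CPM in KO (0 of 8 called). Endothelial markers were lower in every KO library at P21, at 572.8 to 864.1 CPM in WT and 460.1 to 541.0 CPM in KO (0 of 6 called), and stood at 326.5 to 625.4 CPM in WT and 309.5 to 392.9 CPM in KO at P35 (2 of 6 called lower), and 0 of 6 fibroblast markers were called. Median log2 fold changes at P35 were 2.85 for adipocyte, 1.42 for Schwann cell, 0.91 for macrophage and 0.33 for satellite cell markers. Those for fibroblast, endothelial and mature fibre markers were 0.26, -0.50 and -0.64. With library totals at P35, 4 of 6 fibroblast, 3 of 8 Schwann cell, 6 of 6 macrophage, 6 of 6 adipocyte and 3 of 8 satellite cell markers were called higher, and 0 endothelial and 0 mature fibre markers lower. On that scale 4350 of 15595 genes tested were called higher and 326 lower. In bulk RNA, fewer cells of a type and less RNA per cell cannot be told apart, and the part of these markers in the subunit results was not tested.

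The genes with the profile most like each subunit were ranked by Pearson's r of log2 CPM, as a description over libraries that share ages and genotypes. Over the 32 libraries and 13522 genes, Chrng was nearest to Tnnt2 (r = 0.99), Usp11 (0.98) and Myh3 (0.97), and Chrne to Cdh13, Egf (both 0.98) and Ddit4l (0.97). Chrnb1 was nearest to Capns1 (0.97), Akap6 (0.95) and Babam2 (0.94). The genes near Chrnd included Sln (0.94) and Cldn2 (0.91), and Chrna1 was nearest to Plekhh1 (0.87), 2900079G21Rik and Tsc22d4 (both 0.86). Over the 24 libraries of P14, P21 and P35, without the switch after birth, Chrne was nearest to Colq (0.89), Ache (0.87) and Chrna1 (0.85), and Chrna1 to Prkar1a (0.94), Plekhh1 (0.92) and Ncam1 (0.91). Chrnd then paired with Sh2d4a (0.94), Sln (0.92) and Ttc9 (0.91), Chrng with Tnnt2 (0.95), Psip1 (0.93) and Galk2 (0.91), and Chrnb1 with Rpl23 (0.93), Tmeff1 and Usp20 (both 0.92). Among the subunits themselves over these 24 libraries, r was 0.88 for Chrna1 with Chrnd, 0.85 for Chrna1 with Chrne, 0.82 for Chrnd with Chrne, 0.81 for Chrnb1 with Chrng and 0.46 for Chrne with Chrng. Chrne and Chrng had r = -0.82 over all 32 libraries. Rank correlation named 10 of the same 30 genes.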

How the data were processed

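The authors deposited expected counts of each gene in 1 table for all libraries, without scaling between libraries or pooling of replicates. The submitters' processing notes name STAR 2.6.1, RSEM 1.2.22, DESeq2 and GRCm38, the methods name HTSeq as the counter, and the strand setting of counting is not given in the sources used here. Libraries were strand-specific, carried no molecular identifiers that are stated, and totalled 49321035 to 85631408 counts, so precision given by counts covers counting error only. The methods describe P14, P21 and P35 with n=4 per genotype. P1 is named in the study's results and in the sample labels. The labels number the replicates without naming animals, so p-values weigh differences against the spread between these libraries.

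Rounded expected counts were tested with edgeR 4.0.16 in R 4.3.3 (filterByExpr by group, TMM, glmQLFit, glmQLFTest, two-sided, within the libraries compared), and tested on simulated data. Calls needed an adjusted p under 0.01 and a log2 fold change above 0.585 in size, and interactions an adjusted p under 0.01. Symbols and exon lengths came from GENCODE M21 (54723 of 54838 genes matched), and the table held 0 columns that were not used. Profiles were compared as log2 CPM (prior count 2) among genes with a mean of at least 1 CPM.

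The genes named are the 5 subunits, Mtm1, any gene whose exons overlap theirs, the 3 called genes of each list with the smallest adjusted p at P21 and P35, and the 3 genes most like each subunit. Some genes that this rule or the lists hold are not reported here. The subunits and the lists were chosen with earlier results of these data known. Same-numbered WT and KO libraries deviated together at P14, with correlations of 0.207 to 0.611 in 4 of 4 pairs. The own number was the best match in 3 of these. Same-numbered WT libraries of P21 and P35 correlated at 0.0154 to 0.242, with the own number best in 2 of 4. Every other comparison had at least 1 pair with a correlation below 0. No replicates agreed within sampling noise. Alternatives were DESeq2 1.42.0, its size factors, library totals, other filters, unrounded counts, 1 fit of all libraries, the replicate block, other thresholds and leaving out each library. The interaction of P14 with P35 was added after seeing the data.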

Additional observations from a re-analysis of the deposited data

Results flagged for a closer look

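At P1 Chrng in KO replicate 4 stood far below the other KO libraries, at 22.4 CPM against 37.0 to 38.7 CPM, a gap of 0.895 of the group's range. The same library had the highest Mtm1 level of its group, 3.98 CPM against 2.35 to 2.47 CPM, a gap of 0.927 of the range, and still lay below the lowest WT library. In all 56 groups of 4 libraries were checked, and chance alone marks about 1 in 20 groups in this way. The KO effect on Mtm1 itself differed between P1 and P14, by -1.34 on the log2 scale (edgeR interaction, adjusted p = 3.04e-04), with KO below WT in every library at both ages. Between P14 and P35 the KO effect differed by 2.34 for Chrnd, 2.17 for Chrng and 0.69 for Chrnb1 on the log2 scale (edgeR interaction, adjusted p = 7.64e-04, 0.00568 and 0.00168), in a comparison added after the data were seen.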

How the results depend on the processing

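The 4 subunit calls at P35 held under every alternative run, and Chrne joined them with DESeq2, library totals, no filter, all 32 libraries in 1 fit, an adjusted p under 0.05 and without KO replicate 2. At P21 (2 subunits called) the count was 1 with the size factors of DESeq2, 1 with the replicate block and 1 for genes called by both tools, 3 with library totals, no filter, all 32 libraries in 1 fit or an adjusted p under 0.05, each adding Chrna1, and 0 to 3 when a library was left out. For P21 against P14 in WT (1 called) it was 2 with library totals or no minimum fold, 0 with at least 10 counts in every library, 0 with the replicate block and 0 to 1 without a library. For P21 against P14 in KO (1 called) it was 0 with library totals, the replicate block or all 32 libraries in 1 fit, 2 at an adjusted p under 0.05 and 0 to 2 without a library. For P35 against P21 in KO (0 called) it was 1 with DESeq2, with all 32 libraries in 1 fit and at an adjusted p under 0.05. For the KO effect at P35 against P14 (3 called) it was 5 with library totals, 2 with only the libraries of these ages or at least 10 counts in every library (Chrng lost or not tested), and 2 to 3 without a library. The gamma share at P35 differed by 1.03 to 1.49 percentage points without a library. The exact permutation p was 0.0571 without WT replicate 1, 2 or 3 or without any KO replicate. The order of levels was kept in 6 of 8 groups with the longest transcript, and Spearman's rho named 10 of the 30 genes with a like profile. The causes were not tested.

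Values near 0 changed sign. Chrnd at P1 was -0.010 with the replicate block and -0.11 to 0.19 without a library, and Chrng at P1 was -0.10 to 0.13. Chrne at P14 was 0.065 with library totals and -0.17 to 0.13 without a library. In WT, Chrnd from P14 to P21 was -0.31 to 0.10 and Chrng from P21 to P35 was -0.18 to 0.35. In KO, Chrna1 from P1 to P14 was -0.033 with library totals, and from P14 to P21 it was -0.043 with library totals, -0.0053 with no filter, -0.00096 with the replicate block and -0.11 to 0.15 without a library. Chrnb1 in KO was -0.092 to 0.013 from P14 to P21 and -0.033 to 0.089 from P21 to P35.

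Library totals shifted the median of all genes by 0.44 at P35 and 0.20 at P21 between KO and WT, and the genes called higher and lower went from 1324 and 1172 to 4350 and 326 at P35 and from 482 and 227 to 1052 and 105 at P21. Between ages they went from 4304 and 5297 to 1598 and 10025 (P14 against P1, WT), 4168 and 5160 to 1630 and 9616 (same, KO), 450 and 398 to 246 and 569 (P21 against P14, WT), 210 and 158 to 124 and 171 (P35 against P21, WT) and 326 and 305 to 763 and 152 (same, KO), and in the interaction of P21 with P35 from 28 and 58 to 56 and 12 and in that of P14 with P35 from 700 and 885 to 2905 and 225. Over the alternatives the genes called between KO and WT were 2 to 99 in number at P1 and 4 to 98 at P14, then 634 to 1234 at P21, and 2273 to 4676 in the P35 comparison. Between ages the ranges were 7597 to 12294 in WT and 7355 to 11246 in KO from P1 to P14, 144 to 1568 and 487 to 2095 from P14 to P21, and 175 to 980 and 80 to 1427 from P21 to P35. For the interactions they were 3 to 10, 60 to 219 and 9 to 328 between successive ages and 1227 to 3130 for P14 with P35. Outside P14 same-numbered libraries correlated at 0.242 at most. Beside the values given, the replicate block brought Chrna1 in KO from P1 to P14 past the threshold (0.67) and changed no other call. Chrng in WT at P21 rests on 4 to 21 counts, which limits its fold change at that age.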

Other observations

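Chrna9, a nicotinic subunit gene best known from cochlear hair cells and also made in skin, was measured at P1 at 12.3 ± 1.77 CPM in WT and 10.2 ± 3.81 CPM in KO, and at P14 at 1.63 ± 0.445 and 1.23 ± 0.579 CPM. At P21 the means were 1.01 ± 0.741 CPM in WT and 2.54 ± 0.735 CPM in KO (log2 fold change 1.34, edgeR adjusted p = 0.0574), and at P35 0.153 ± 0.109 and 0.605 ± 0.368 CPM (1.99, adjusted p = 0.0451). WT and KO overlapped at each age and the gene was not called at any. It was named after its values were seen, and the keratinocyte markers present at P1 stand beside its high level there, their part in which was not tested.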
